A study of Mus musculus with 400 samples.

Results

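Mitochondrial ribosomal protein genes are the nuclear genes whose mouse symbols begin with Mrpl or Mrps, followed by a number and at most 1 letter. They were picked by symbol alone from the count table of single Lgr5-high cells, and 78 of its 33496 genes met the rule. All 78 had counts, so none was lost to a filter. By the subunit in which the protein sits in solved structures, 51 belonged to the large subunit, 26 to the small subunit and 1, Mrps36, to neither. Mrps30 and Mrps18a carry a small-subunit name but sit in the large subunit, and were counted there.

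The mitochondrial ribosome translates the few messenger RNAs of the mitochondrial genome, all of which encode subunits of the respiratory chain and ATP synthase. Its ribosomal RNAs come from the mitochondrial genome, while its proteins are encoded in the nucleus, made in the cytosol and imported. Some of these proteins have a counterpart in bacteria, and others were added during the evolution of mitochondria. In the crypt base of the intestine, stem cells lie between Paneth cells, and mitochondrial activity of both cell types has been linked to stem cell function.

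The series held 400 single cells sorted as Lgr5-high from the proximal small intestine of mice with an Lgr5-EGFP-IRES-CreERT2 allele (Lgr5 GFP/+ in the labels), which places green fluorescent protein under the Lgr5 promoter. All cells formed 1 group, with no animal, age, sex or treatment named for any cell. The titles gave 10 library sets of 40 cells, and the same 40 barcode numbers recurred in every set. The group was therefore 1 sample, every SD below is over library sets unless stated, and no p-value was computed.

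Of the 400 cells, 380 had at least 10000 counts and were kept, 36 to 39 per set. Their totals ran from 10766 to 70133 with a median of 32112, and the median cell had a count for 8616 genes. No count in the table exceeded 36, and the highest count of any member in any kept cell was 21. The stem cell markers fitted the label: all 14 were found in at least 50% of kept cells and 11 of 14 in at least 90%, with Lgr5 in 97.9%. Markers of other cell types were also present. The Paneth cell gene Defa24 had a count in all 380 cells, and the summed Paneth markers took 0.0423% to 1.47% of a cell's counts. Summed goblet markers took 0.00290% to 0.605% and summed enterocyte markers 0.0345% to 0.613%.

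The promoters of 5 members are shown first, because the symbol rule did not use sequence. All 5 hold a match to a motif named below, while of the 69 members with a window 40 do. Each is the RefSeq window from 250 bases before to 50 bases after the start of the gene on GRCm38.p6, 5′ to 3′ on the gene's strand. Mrpl42 was the most abundant member by depth-scaled count, Mrpl12 contacts the mitochondrial RNA polymerase, Mrps18c and Mrps18b are the most and least abundant members of a family of related proteins, and Mrps11 shares its promoter with another member. Capitals mark matches, on either strand, to the letters AAGATGGCG (YY1), to GCGCA followed by any base and GCGC (NRF1), or to CCGGAAG (the ETS family, which includes GABPA), 3 motifs of factors known to bind promoters of nuclear genes for mitochondrial proteins.
Mrpl42, chr10:95501900-95502199, minus strand: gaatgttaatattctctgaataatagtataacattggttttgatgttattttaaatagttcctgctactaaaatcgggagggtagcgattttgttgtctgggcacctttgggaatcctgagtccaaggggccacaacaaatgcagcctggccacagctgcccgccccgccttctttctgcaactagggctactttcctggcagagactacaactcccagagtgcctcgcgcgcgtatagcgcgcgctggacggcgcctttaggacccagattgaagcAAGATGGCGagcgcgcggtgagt
Mrpl12, chr11:120484387-120484686, plus strand: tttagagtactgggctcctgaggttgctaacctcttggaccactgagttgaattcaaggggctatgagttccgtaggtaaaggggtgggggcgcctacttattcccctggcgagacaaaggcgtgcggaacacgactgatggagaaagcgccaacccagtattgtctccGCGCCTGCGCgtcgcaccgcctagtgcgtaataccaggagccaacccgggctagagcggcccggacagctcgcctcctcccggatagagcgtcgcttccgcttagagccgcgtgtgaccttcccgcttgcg
Mrps18c, chr5:100798509-100798808, plus strand: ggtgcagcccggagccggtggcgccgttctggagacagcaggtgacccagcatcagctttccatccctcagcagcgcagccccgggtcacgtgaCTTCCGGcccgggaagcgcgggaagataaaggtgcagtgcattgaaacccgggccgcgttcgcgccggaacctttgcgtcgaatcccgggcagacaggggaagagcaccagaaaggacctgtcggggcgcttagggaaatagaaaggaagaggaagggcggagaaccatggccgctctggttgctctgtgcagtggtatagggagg
Mrps18b, chr17:35916391-35916690, minus strand: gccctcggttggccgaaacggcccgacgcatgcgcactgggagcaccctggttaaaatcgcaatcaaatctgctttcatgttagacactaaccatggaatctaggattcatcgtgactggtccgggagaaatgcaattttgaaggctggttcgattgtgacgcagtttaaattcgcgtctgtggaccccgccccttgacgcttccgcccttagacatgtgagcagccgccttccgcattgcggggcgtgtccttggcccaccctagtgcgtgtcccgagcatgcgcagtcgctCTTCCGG
Mrps11, chr7:78782881-78783180, plus strand: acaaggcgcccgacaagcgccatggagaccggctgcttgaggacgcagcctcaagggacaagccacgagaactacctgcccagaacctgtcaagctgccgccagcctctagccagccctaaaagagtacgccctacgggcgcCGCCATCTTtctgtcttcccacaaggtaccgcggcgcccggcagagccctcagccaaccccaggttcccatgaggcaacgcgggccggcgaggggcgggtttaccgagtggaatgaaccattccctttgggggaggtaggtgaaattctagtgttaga

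RefSeq windows were at hand for 69 of the 78 members. The share of windows holding a motif was set beside that of 11608 windows of measured genes, those found in at least 10% of cells. The ETS motif was found in 25 of the 69 windows (36.2%), against 16.4% of measured genes. The NRF1 motif was found in 13 (18.8%), against 9.31%, and the YY1 motif in 8 (11.6%), against 2.83%. At least 1 of the 3 was present in 40 windows (57.97%), against 25.7% of measured genes and 14.04% of all 27025 windows. The 74 nuclear genes of the respiratory chain, of which 61 had a window, held the ETS motif in 24.6% and the NRF1 motif in 26.2%, while 59 windows of cytosolic ribosomal protein genes held them in 38.98% and 5.08%. Other promoter words did not show that pattern: CCAAT was in 39.1% of member windows against 38.4%, the E-box CACGTG in 7.25% against 9.75%, the GC box GGGCGG in 49.3% against 59.1%, and TATAAA in 5.80% against 7.94%. Median GC content was 58.3% in member windows and 60% in windows of measured genes. Members with and without a motif had like levels: the median was 122.2 CPM with the ETS motif and 105.3 CPM without it, and 128.9 CPM with the NRF1 motif and 108.7 CPM without it. CPM scales a gene's count by all counts of the cell. A match is a description of letters in a window and does not show that a factor binds there.

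Members often stood back to back with another gene. In GENCODE M21, 25 of 78 (32.1%) had a protein-coding neighbour on the opposite strand that starts within 500 bases, against 12.5% of 13822 measured protein-coding genes. Exons of 33 members (42.3%) overlapped an exon of another gene, against 36.5%, and since the use of strand in counting is not given, counts of such genes are uncertain. The neighbour was usually the lower of the pair, with a median of 123.99 CPM for the members and 28.2 CPM for their partners, and the member was higher in 17 of 25 pairs, with the pair of Mrpl46 and Mrps11 counted from both sides. Mrps18c, at 228.02 CPM, starts 29 bases from the DNA helicase gene Helq, at 20.4 CPM. The exceptions included Mrpl36, at 175.9 CPM, beside the complex I gene Ndufs6, at 341.6 CPM, and Mrpl32, at 88.8 CPM, beside the proteasome gene Psma2, at 199.9 CPM. Across cells at equal depth, Spearman's rho between the 2 genes of a pair had a median of -0.0017 and a range of -0.094 to 0.185. Many partners had few counts, such as Zfp189 in 7.89% of cells, and a rho near 0 does not show that such genes are unrelated. Of widely found partners, Ndufs6 (100% of cells) gave 0.185 and Psma2 (96.3%) 0.175, while Fau (98.7%), beside Mrpl49, gave -0.0017. Mrpl46 and Mrps11 were the only pair of 2 members. Their RefSeq starts lie 42 bases apart on chromosome 7, at 78783089 on the minus strand and 78783131 on the plus strand, and their rho was 0.154. Their annotated exons overlap, and the part of shared reads in that value was not tested.

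Most members were found in most cells. A count was present in at least 50% of kept cells for 75 of the 78 members, against 22.4% of the 33473 genes with any count and 35.2% of protein-coding genes. In at least 90% of cells the number was 30, against 5.22% of all genes and 8.15% of protein-coding ones. The median member was found in 86.3% of cells at a mean of 117.7 CPM, while the median protein-coding gene was found in 31.1% of cells at 19.6 CPM. A kept cell had counts for 34 to 78 of the members, with a median of 67. With every cell thinned at random to 19169 counts, a depth that all but 38 of the 380 cells reached, the range was 38 to 73 and the median 61.

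**Figure D1:**
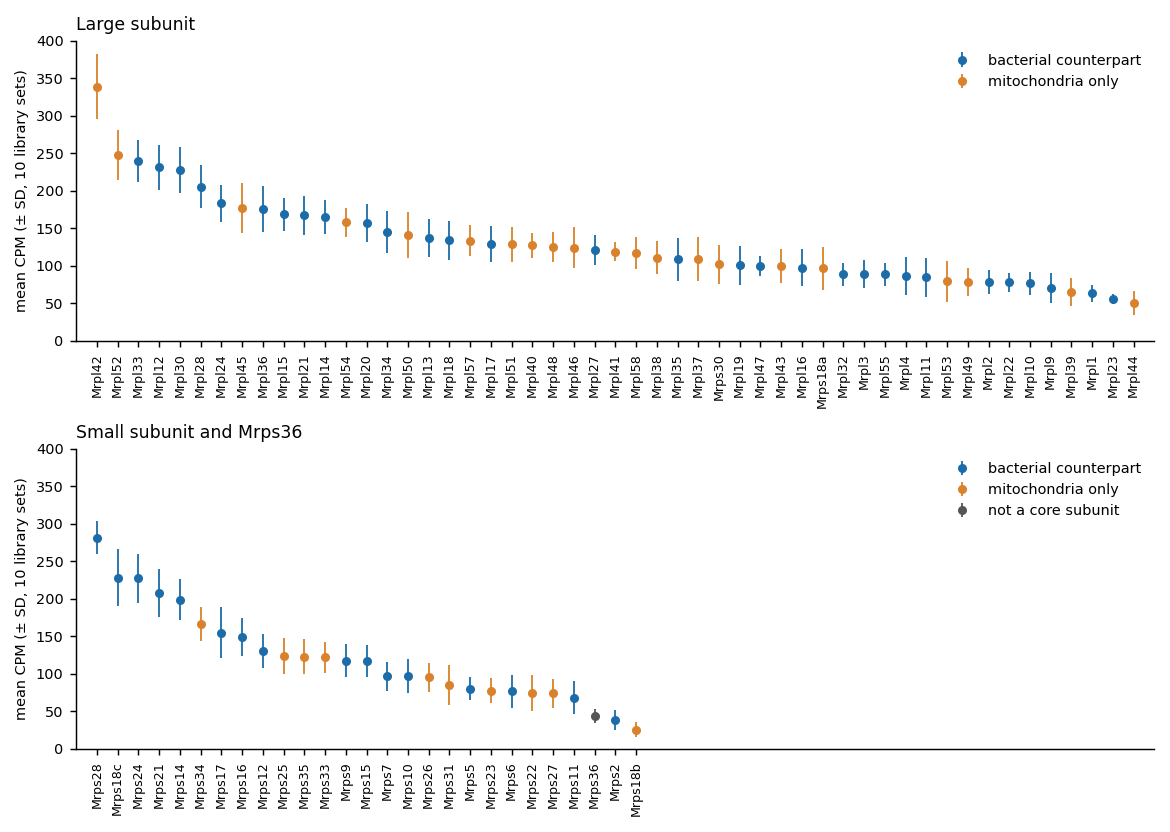
Mean CPM of each of the 78 members over 380 cells, with the SD over 10 library sets as bars, in order of level, for the large subunit above and for the small subunit with Mrps36 below; colours give whether the protein has a bacterial counterpart. Levels ran from 338.7 CPM for Mrpl42 to 25.7 CPM for Mrps18b, with no step between neighbours larger than their SD in all but 2 places.

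The most abundant members came from both subunits. Mrpl42 (ENSMUSG00000062981.4; GRCm38 chromosome 10, 95480805 to 95501940, minus strand), a large-subunit protein found only in mitochondria, had 298.4 CPM in the lowest, 320.3 CPM in the median and 421.2 CPM in the highest library set, and was the only member with a count in all 380 cells. Mrps28 (ENSMUSG00000040269.5; chromosome 3, 8802146 to 8923918, minus strand), in the small subunit, had 251.4, 275.6 and 317.2 CPM in the lowest, median and highest set. These ranges overlapped, and the means were 338.7 ± 43.6 CPM for Mrpl42 and 281.4 ± 21.7 CPM for Mrps28. Mrpl52, in the large subunit, followed with 247.5 ± 33.5 CPM, then Mrpl33 with 240.03 ± 28.1 CPM and Mrpl12 with 231.1 ± 29.8 CPM. In the order of all 78 members by CPM, 75 of the 77 pairs of neighbours differed by less than their SD, so the order marks high, middle and low members rather than single ranks.

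Per kb of transcript, a scale that favours short genes where counts do not rise with length, the highest were short genes. Mrpl52 had 591.996 CPM per kb, Mrpl42 510.5, Mrpl33 502.2, Mrps21 465.7 and Mrps28 359.4 CPM per kb. The lowest on this scale were Mrpl17 with 17.7, Mrps5 with 17.96, Mrpl1 with 18.2, Mrps2 with 18.4 and Mrpl19 with 20.1 CPM per kb. Mrpl1 forms the stalk at which transfer RNA leaves the bacterial ribosome, and Mrps5 lies near the messenger RNA entry. Mrpl17 shows how far length decides this order: at 128.9 CPM it was above the median member, but its principal transcript is 7300 bases long. Over 13822 measured protein-coding genes CPM had no relation to transcript length (rho -0.01, a description across genes), and over the 78 members rho was -0.27. Which part of a transcript the reads covered is not given in the sources used here, and both scales are therefore reported.

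Only 3 members were found in under 50% of cells. Mrps18b, a small-subunit protein, was found in 35.8% of the 380 cells (exact Clopper-Pearson 95% interval 30.97 to 40.84), Mrps36 in 48.4% (43.3 to 53.6) and Mrps2 in 49.2% (44.1 to 54.4). These intervals cover counting error only. Mrps36 differs in kind, because its protein is now known as a part of the 2-oxoglutarate dehydrogenase complex of the citric acid cycle. It averaged 44.2 ± 9.27 CPM, and Mrps2 averaged 38.3 ± 13.2 CPM.

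The Mrps18 family holds 3 related proteins that sit in different places of the ribosome, and their genes were at unequal levels. Mrps18c, the small-subunit form with a bacterial counterpart, had 166.1, 238.2 and 271.2 CPM in the lowest, median and highest library set. Mrps18a, in the large subunit, had 33.9, 101.4 and 125.1 CPM, and Mrps18b, in the small subunit, had 11.8, 23.8 and 42.98 CPM. The sets of Mrps18c lay above all sets of the other two, and the sets of Mrps18a overlapped those of Mrps18b through its lowest set alone. Per kb the means were 357.4 CPM for Mrps18c, 109.6 CPM for Mrps18a and 23.8 CPM for Mrps18b, in the same order.

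Members with a known special role were found at high, middle and low levels. Mrpl12, whose protein forms the stalk that recruits translation factors and also binds the mitochondrial RNA polymerase, was found in 99.5% of cells. Mrps12, at the decoding centre by analogy with bacteria, averaged 130.6 ± 22.3 CPM, with 89.6 to 165.9 CPM over sets. Mrpl58, which can release stalled chains by cutting peptidyl-tRNA, averaged 116.995 ± 21.2 CPM. Mrps30 averaged 101.95 ± 25.7 CPM, and Mrpl44, a relative of ribonuclease III, was among the lowest of the large subunit with 50.5 ± 16.4 CPM in 60% of cells.

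Near-identical copies elsewhere in the genome limit some of these values. Aligned to the annotated transcripts, 18 members had a processed pseudogene with at least 95% identity over at least 300 bases, 22 copies in all, of which 18 had a row in the table. Mrpl23 is identical over 540 bases to Mrpl23-ps1, and the pseudogene had the larger mean count, 5.38 against 1.94 for the gene. For Mrpl42 the copy Gm6419 (96.3% identity over 429 bases) had a mean count of 5.05, beside 10.7 for the gene, and for Mrps33 the copy Gm5776 had 2.79 beside 4.15. Mrps18b has Gm13552 (99.8% over 417 bases) with 0.429 beside 0.905, and Mrps36 has 4 copies, the largest, Mrps36-ps1, with 0.811 beside 1.53. How reads that fit both places were assigned is not given, so the levels of these members are uncertain.

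The genes of both subunits were at nearly the same level. The mean over members was 129.1 CPM for the large subunit and 124.7 CPM for the small subunit, a log2 ratio of 0.05 with an SD of 0.03 over sets and a range of -0.0046 to 0.092. The direction was not stable: without the 18 members that have a near-identical copy the ratio was -0.10. By medians the levels were 119.1 CPM for the large and 117.7 CPM for the small subunit.

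Proteins with a bacterial counterpart were encoded at about the same level as proteins found only in mitochondria on the CPM scale, with medians of 119.7 CPM over 46 members and 116.995 CPM over 31 members, a log2 ratio of 0.03. Per kb the medians were 92.999 and 62.6 CPM, a log2 ratio of 0.57, with a mean of 0.60 ± 0.23 over sets and a positive value in all 10. The genes of the second kind were longer, with a median transcript of 1424 bases against 1150. With the length of all annotated exons the ratio was 0.21, and without members whose exons overlap another gene it was 0.19, both less than 1 SD above 0. The lowest of the 4 classes were the 10 small-subunit proteins found only in mitochondria, with a median of 90.5 CPM and 1 of 10 in at least 90% of cells.

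Summed over all members, the mitoribosomal genes took 0.987% of a cell's counts on average. Library sets ranged from 0.891% to 1.12% with an SD of 0.069. Single cells varied more, from 0.350% to 1.56% with a median of 1.03%, and the SD over cells within a set was between 0.168 and 0.262. It was largest, at 0.246 to 0.262, in sets 1, 6, 8 and 10.

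**Figure D2:**
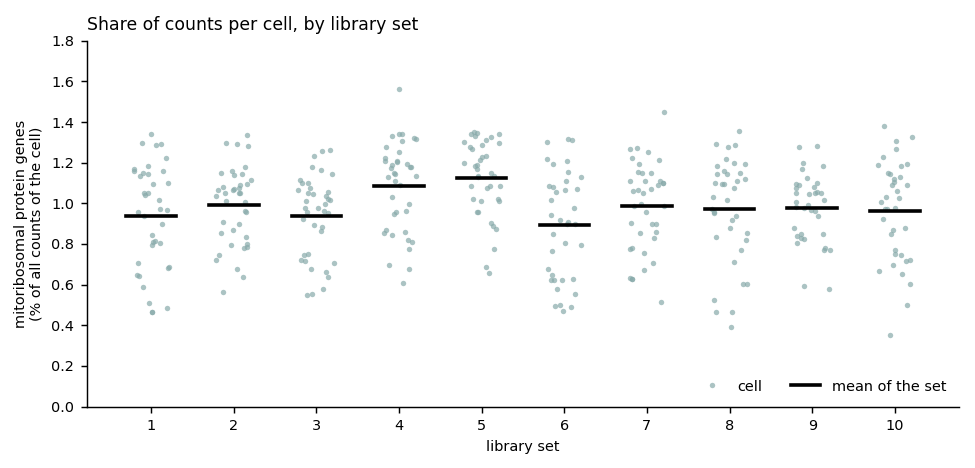
Share of a cell's counts that fell on the 78 members, in percent, for each of the 380 kept cells by library set, with the mean of each set as a bar. Set means lay between 0.891% and 1.12%, and cells within every set covered a far wider range.

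Members moved together from cell to cell. In cells thinned to 1 depth the summed members had 191.9 counts on average, with an SD over cells of 44.5. The variance of the sum was 6.04 times the sum of the members' own variances, where 1 would mean no common movement; within library sets the ratio averaged 6.02 ± 1.90 and was above 3.6 in all 10. It was 4.08 for the large and 2.80 for the small subunit taken alone. For comparison, the ratio was 12.9 for 74 nuclear respiratory chain genes, 19.6 for 81 cytosolic ribosomal protein genes and 3.54 for 31 proteasome genes, lists of other sizes and levels. Of the 75 members with a mean of at least 1 thinned count, 71 had a rho of 0.1 or more with the sum of the other members, against 47% of 5667 other genes with the sum of all members. The median rho was 0.23 for members and 0.087 for the other genes. Single pairs were only weakly related, with a mean Pearson correlation of 0.064 between members and 0.0067 between all 5742 genes at this level. All such values are descriptions over cells that share 1 preparation, 10 library sets and the same thinned depth.

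The summed counts of the large and of the small subunit varied together, with a rho of 0.722 over all thinned cells and 0.440 to 0.852 within sets. Another property of the cells moved with them. The number of genes detected in a thinned cell ranged from 5713 to 9881, and its rho with the summed members was -0.637: cells whose counts were spread over more genes had fewer on these members. Given that number, the rho between subunits was 0.576 and the variance ratio 3.14. The part of the gene number in the co-variation was not tested further.

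**Figure D3:**
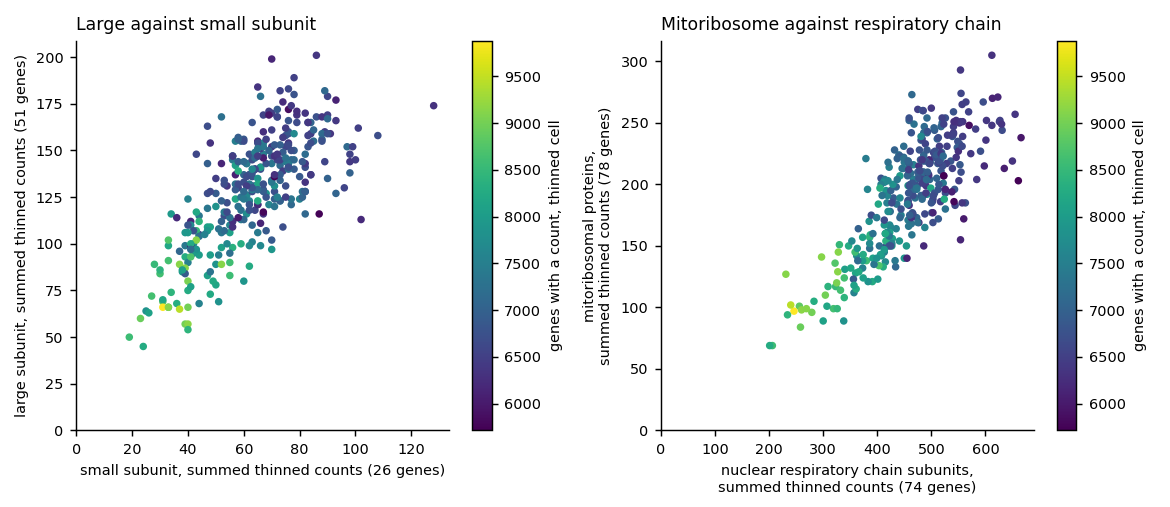
Summed thinned counts in each thinned cell, for the large against the small subunit (left) and for all members against the nuclear genes of the respiratory chain (right), coloured by the number of genes with a count in the thinned cell. Both pairs ran together (rho 0.722 and 0.758), and cells with the most genes lay at the low end of each.

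The members most closely tied to the rest were Mrps33 with a rho of 0.378, Mrps21 with 0.372 and Mrpl36 with 0.370. At the other end Mrpl47 had -0.039, Mrpl48 0.061 and Mrps6 0.071, values too weak to be read as a relation. Their mean counts were 3.23, 4.08 and 2.48, against 4.15 for Mrps33. Mrpl47 overlaps exons of Actl6a and Ndufb5, and Mrpl48 those of Rab6a. The variance of thinned counts was lowest relative to the mean for abundant members, at 1.14 for Mrpl42, 1.16 for Mrps28 and 1.34 for Mrpl12. The part of the count limit of 36 in these low values was not tested. Mrpl16, Mrps6 and Mrps5 were the most variable, at 2.32, 2.30 and 2.29. The medians were 1.79 for members and 1.84 for all genes at this level.

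Nuclear respiratory chain genes and proteasome genes had the highest rho with the members among the gene lists, and their set ranges overlapped. The 74 genes, whose products join the proteins made on the mitochondrial ribosome, were all found in at least 50% of cells and 69 of them in at least 90%. Their summed counts had a rho of 0.758 with the members, positive in all 10 sets (0.616 to 0.884), and 0.538 given the number of genes. Proteasome genes gave 0.700 (0.486 to 0.848 over sets), and 0.528 given the number of genes. Cytosolic ribosomal protein genes gave 0.562, and 0.088 given the number of genes. The 26 genes of cytosolic ribosome biogenesis gave 0.486, and 0.261 given the number of genes. The cytosolic list was added with results known, and its own rho with the number of genes was -0.823.

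**Figure D4:**
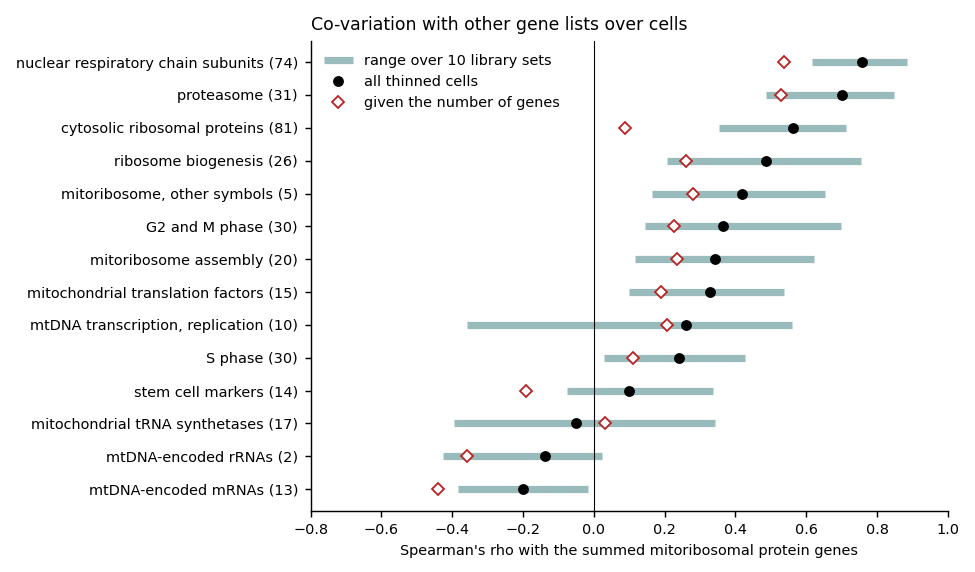
Spearman's rho over cells between the summed members and the summed genes of 14 lists, with the number of genes listed in brackets: filled points for all thinned cells, open diamonds for the same value given the number of genes in the cell, and bars for the range over 10 library sets. Respiratory chain and proteasome genes had the highest values, with overlapping ranges, and transcripts of the mitochondrial genome were below 0.

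In the rest of the mitochondrial translation pathway, ribosomal proteins with other symbols were found about as widely as the members, and factors, assembly proteins and synthetases in fewer cells. Of the 5 ribosomal proteins whose genes have other symbols, 4 were found in at least 50% of cells and 3 in at least 90%: Chchd1 averaged 262.3 CPM, Gadd45gip1 151.4, Dap3 132.2, Aurkaip1 129.3 and Ptcd3 31.4 CPM. Of 15 translation factors and related genes, 12 were found in at least 50% of cells and 1 in at least 90%. This was Slirp, an RNA-binding protein that stabilises mitochondrial messengers, in 96.6%, and the lowest was the release factor gene Mtrf1, in 25.3%. Of 20 assembly factors, 7 were found in at least 50% of cells and 0 in at least 90%, from Malsu1 in 80.5% to the RNA helicase gene Ddx28 in 13.2%. Of 17 mitochondrial tRNA synthetases, 9 were found in at least 50%, from Lars2 in 99.5% to Aars2 in 12.9%. The rho with the summed members was 0.419 for the 5 ribosomal proteins, 0.341 for assembly factors, 0.328 for translation factors and -0.050 for the synthetases. For the synthetases it was -0.395 to 0.341 over sets. Single synthetase genes ran from -0.318 for Lars2, the most abundant at 263.3 CPM, to 0.222 for Tars2. The 10 genes of mitochondrial DNA transcription and replication, from Ssbp1 in 90.5% of cells to Mterf1b in 5.26%, gave 0.261. The lists differ in size and level, so these values are not ranked.

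Transcripts of the mitochondrial genome ran the other way. The 13 messenger RNAs it encodes had a rho of -0.199 with the summed members, below 0 in all 10 sets, and -0.439 given the number of genes. Its 2 ribosomal RNAs had -0.138, and -0.357 given the number of genes. The ribosomal RNAs had mean counts of 29.8 for mt-Rnr1 and 30.4 for mt-Rnr2, and 9 of the 13 messengers had mean counts of 18.75 to 28.8. These lay near the top of a table that ends at 36, where differences between cells may be compressed. The other 4 messengers, mt-Nd3, mt-Atp8, mt-Nd4l and mt-Nd6, had mean counts of 4.86, 2.64, 2.63 and 1.58 and a rho of -0.088, -0.038, -0.114 and -0.080 with the members. Among the 9 abundant ones rho was -0.185 to -0.108. The part of the count limit and of the cell's total in the summed values was not tested.

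Cell cycle genes had a weak positive relation to the members, with a rho of 0.364 for 30 genes of G2 and M phase and 0.242 for 30 genes of S phase, both positive in all 10 sets, and 0.226 and 0.110 given the number of genes. The 14 stem cell markers gave 0.098, and -0.190 given the number of genes. Of the markers of other cells, the 8 stromal and endothelial genes had the strongest relation, -0.533 and within sets -0.823 to -0.263. They were rare, with 5 of 8 found in at least 10% of cells and 0 to 0.0651% of a cell's counts, and they had a rho of 0.610 with the number of genes. Their value given the number of genes was -0.237. The 8 tuft markers gave -0.292, the 8 enteroendocrine markers -0.248, the 10 goblet markers -0.148 and the 10 Paneth markers -0.136, while the 12 enterocyte markers gave 0.293 and the 6 immune markers 0.186. No listed marker was at 0 in all cells, and the part of these cells' RNA in the members' variation was not tested.

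The title of the series names Mex3a, an RNA-binding protein, as the mark of slowly dividing cells among the Lgr5-positive ones. Cells were therefore split by a Mex3a count after thinning, into 31 cells with it and the remaining thinned cells without it, classes within 1 sample that have no replicates. Mean Mex3a was 67.3 CPM in cells with it and 1.36 CPM in cells without it. Cells with Mex3a had a median total of 32738 and a median of 6781 genes after thinning, against 33457 and 7042 in the others.

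The mitoribosomal share of the 2 classes differed by less than its spread over library sets. It averaged 1.04% in cells with Mex3a (0.580% to 1.36%, median 1.07%) and 0.996% in cells without (0.350% to 1.56%, median 1.05%), with an SD over cells of 0.219 and 0.227. Within the 6 library sets that had at least 3 cells with Mex3a the difference averaged -0.020 percentage points with an SD of 0.099, and it was positive in 2 of 6. The large subunit took 0.705% of counts with Mex3a and 0.663% without it, and the small subunit 0.329% with and 0.328% without it.

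Gene by gene, the ratio of mean CPM in cells with over cells without Mex3a (1 CPM added to both) had a median log2 of 0.07 over the 78 members, and 51 were above 0. Over all 17216 genes found in at least 10% of cells the median was -0.05 with 44.8% above 0, and over the 9476 of them within the members' range of levels it was -0.01 with 49.03% above 0. The pooled direction was not stable. The median within the 6 sets averaged -0.12 ± 0.15 and was above 0 in 2 of 6, and it was -0.01 without library set 8. A log2 ratio of 0.5 or more was seen in 1 member, against 8.21% of all genes, and of -0.5 or less in 1 member, against 18.1%. Genes with few counts pass more often, and of the 9476 genes at the members' levels 12.02% passed in either direction.

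These 2 members were Mrpl39 and Mrps18b. Mrpl39, a large-subunit protein found only in mitochondria, had 112.7 CPM with Mex3a, against 63.5 CPM without it. Its log2 ratio was 0.82 with an SD of 1.01 over 6 sets, and it was higher with Mex3a in 4 of 6. In 20 other random draws of the thinning the ratio was 0.36 to 0.80, and it was 0.51 without library set 4 and 0.53 without set 7. Mrps18b had 12.1 CPM in cells with Mex3a, where 4 of 31 cells had a count, and 29.1 CPM in cells without, where 95 cells had one. Its log2 ratio was -1.20 with an SD of 2.21 over sets, -1.41 to -0.086 in other draws, -0.57 without library set 3 and -0.78 without set 1. Leaving out a set also draws the thinning anew. Neither difference was larger than its spread. The exons of Mrps18b overlap those of Gm16279, and it has the near-identical copy Gm13552. Next in order, Mrpl9 had 92.98 CPM with Mex3a and 69.2 CPM without it (log2 ratio 0.42) and Mrpl22 had 109.01 CPM with and 81.6 CPM without it (0.41). Mrpl36 had 134.2 CPM with Mex3a and 179.97 CPM without it (-0.42), lower in all 6 sets, and Mrpl43 had 77.6 CPM with and 102.6 CPM without it (-0.40). Both were smaller in size in every other draw, at -0.36 to -0.11 for Mrpl36 and -0.39 to 0.066 for Mrpl43. Mrpl46, added after its values were seen, had 160.1 CPM with Mex3a and 121.6 CPM without it, a log2 ratio of 0.39 with an SD of 0.27, higher in 6 of 6 sets. Mrpl53 and Mrps22 were higher with Mex3a in 0 of 6 sets, at log2 ratios of -0.13 and -0.23. How many of all genes keep 1 direction in all 6 sets was not computed, nor was Mrpl46 followed over other draws, so this agreement is not read as a stable difference.

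**Figure D5:**
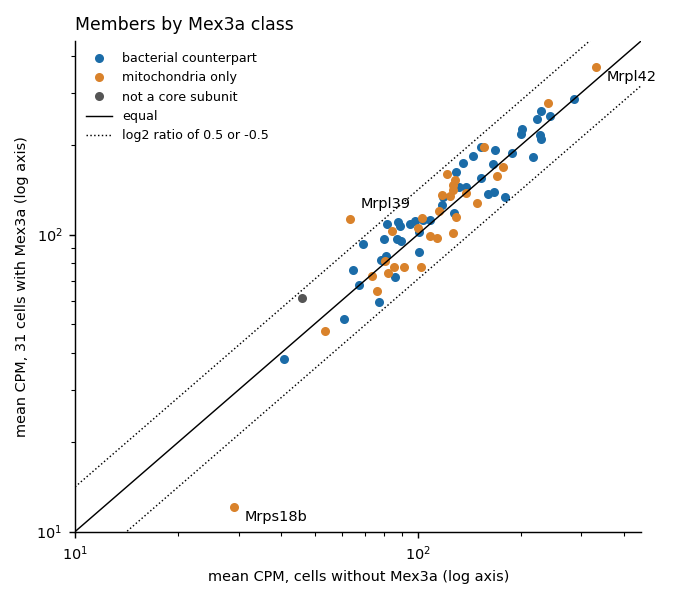
Mean CPM of each member in 31 cells with Mex3a (vertical, log axis) against the cells without it (horizontal, log axis); the solid line marks equal levels and the dotted lines a log2 ratio of 0.5 and -0.5. Only Mrpl39 and Mrps18b lay beyond the dotted lines, and both have wide spreads over library sets.

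Several lists for the mitochondria had medians near 0 as well, while those of some other cell types were lower. The 74 respiratory chain genes had a median log2 ratio of 0.04 with 59 above 0, and took 2.49% of counts in the 31 cells and 2.40% in the others. The 13 messengers of the mitochondrial genome had -0.01, and the 20 assembly factors 0.07 with 12 above 0. Paneth markers took 0.186% of counts in the 31 cells and 0.189% in the others, and goblet markers 0.0517% in the 31 cells and 0.0590% in the others. Median log2 ratios were -0.02 over the Paneth, -0.49 over the goblet, -0.69 over the tuft, -0.66 over the stromal and endothelial, -0.10 over the immune and -0.01 over the enterocyte markers found in at least 10% of cells, and -0.37 for the 1 enteroendocrine marker so found. Most of these markers had few counts, and their part in the members' ratios was not tested.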

How the data were processed

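Single Lgr5-high cells were captured on a C1 chip and cDNA was amplified by SMARTer chemistry, as the labels' protocols state. The deposited table holds whole-number counts per gene and cell, not normalized by the authors as far as the values show. GRCm38.p4 is the genome build named in the submitters' processing notes. For the aligner, counter, annotation, strand setting and molecular identifiers, the tool or choice is not given in the sources used here. Symbols came from GENCODE M21 on the same build, for 33219 of 33496 identifiers.

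The members, gene lists and comparisons were chosen with earlier results of these data known. Cells with at least 10000 counts were kept and doublets were not removed. CPM used all counts of a cell. For comparisons over cells, each was thinned without replacement to 19169 counts, the 10th percentile, and 38 shallower cells were left out. CPM per kb used the median length of the principal transcripts. A subunit was assigned from published structures, and this is background knowledge. Correlations given the number of genes are partial Spearman correlations. The variance ratio given that number used what was left of the members' thinned counts after a straight-line fit on it. Members named are the highest and lowest by CPM per kb, share of cells, variance over mean, rho and Mex3a ratio, those with a known special role, and pairs or copies picked after their values were seen. With 1 sample there was no test. The Mex3a ratio and the variance ratio were checked on simulated counts with known answers, drawn without a count limit. The other measures were not simulated. Tools were Python 3.11.15, numpy 2.4.6, pandas 2.3.3, scipy 1.17.1, matplotlib 3.10.9 and blastn 2.17.0. Promoter windows are from RefSeq tables of GRCm38.p6. Alternatives were other cell filters, depths, draws, pseudocounts, length scales and member sets, each library set left out, and counts mapped back from a finite pool of identifiers.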

Additional observations from a re-analysis of the deposited data

Results flagged for a closer look

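Of 37 values checked over the library sets, 1 had a set that stood apart by Dixon's criterion, which flags about 1 in 20 groups by chance. Mrps18a averaged 33.9 CPM in its lowest library set, while the other 9 sets lay between 78.8 and 125.1 CPM.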

How the results depend on the processing

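Depth limits what can be said of single members: the median member had a mean of 3.84 counts per cell, and set-to-set SDs were 7.73% to 39.9% of the mean. No paired analysis was possible because all cells form 1 labelled group, so no 2 groups share replicate numbers; the Mex3a classes, which are not labelled groups, were compared within library sets. Without members whose exons overlap another gene, 45 members remained. Of these 43 were in at least 50% of cells, the share was 0.579% and the ratio for bacterial counterparts was 0.19. Members with a Mex3a log2 ratio of -0.5 or less numbered 0, because Mrps18b, the only such member, was left out. Without members with a near-identical copy, chosen after seeing the data, the share was 0.768% and the large over small ratio reversed to -0.10. Mrps18b was left out here too, so 0 members were at -0.5 or less. The large over small ratio was 0.12 with subunits taken from the symbols and 0.083 per kb. The bacterial ratio was 0.033 by CPM and 0.21 with all annotated exons. Given the number of genes, also added later, rho was 0.576 between subunits, 0.538 with respiratory chain genes and -0.439 with mitochondrial messengers, and the variance ratio was 3.14. Members with a Mex3a log2 ratio of 0.5 or more numbered 2 at the 25th percentile depth, 0 to 3 in other draws and 1 to 4 leaving out 1 library set, highest without set 4. Those at -0.5 or less numbered 2 without the cells with the most genes, 0 at the 25th percentile depth, 0 to 3 in other draws and 1 to 2 leaving out 1 set. Apart from the removal of Mrps18b, the cause of these shifts was not tested. All other alternative values of the main results stayed within 1 SD over sets or, for counts, within 1.5 times.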
